A study of Mus musculus with 14 samples.

Results

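The change in transcript levels from germinal vesicle (GV) to ovulated oocytes was followed in mouse oocytes from which Mff had been deleted. Its members are the genes listed for both stages, matched on the gene identifier: 16196 of the 18507 genes listed for either stage, read in 7 of the 14 libraries of the study. The stage course compared 4 GV libraries with 3 ovulated libraries, all with the genotype Mff fl/fl; Gdf9-Cre and called CKO in the labels. The matching controls, called WT in the labels, were Mff fl/fl oocytes without Cre (4 GV and 3 ovulated libraries), so the floxed Mff allele was shared by every group. Gdf9-Cre expresses the recombinase in oocytes from early follicles on, which leaves the somatic cells of the ovary undeleted. The labels call the samples single-cell samples. How many oocytes or animals a library holds, and the age of the mice, the sources used here do not give, so the p-values speak only of the spread among these libraries, which may be technical.

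A GV oocyte rests in prophase of the first meiotic division and holds a large store of maternal mRNA, made during growth, after which transcription stops. When meiosis resumes, the oocyte passes to the second metaphase and is ovulated while part of that store is degraded and another part is translated. Which mRNAs are translated depends largely on elements near the 3′ end: the cytoplasmic polyadenylation element (CPE), bound by CPEB1, acts with the nearby polyadenylation signal to lengthen the poly(A) tail. Mff encodes a receptor of the mitochondrial outer membrane that draws the GTPase DRP1 there to divide the organelle. SMART-Seq2 primes cDNA on the poly(A) tail, so the amount of an mRNA and the length of its tail cannot be told apart in these values, nor can fewer cells and less RNA per cell.

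Short 3′-end sites are shown first, because the share of genes that carried such a site differed widely between genes called higher and genes called lower (values below). Each stretch below runs 5′ to 3′ on the mRNA strand from the CPE nearest the end of the transcript to the end of the polyadenylation signal, with both elements in capitals and T for U. They are all the sites of at most 30 bases among the genes named by rule in this report that were called higher or lower. Sites of named genes that were not called are not shown. The sites were read from the GENCODE M21 transcripts of GRCm38, the assembly that mm10 names.
Pim1: TTTTATacttggcattttttgAATAAA
Lsm14a: TTTTAATaaaggccatggAATAAA
Pan3: TTTTAATaaagaattgcagaAATAAA
Bcl2l11: TTTTATataAATAAA
Omt2a: TTTTATaataAATAAA
Commd4: TTTTATaggcaagaagAATAAA
The Pim1 site lies at chr17:29496069-29496095 on the plus strand, that of Lsm14a at chr7:34344664-34344687 on the minus strand and that of Pan3 at chr5:147548471-147548496 on the plus strand. The Bcl2l11 site lies at chr2:128162515-128162529 on the plus strand, that of Omt2a at chr9:78312018-78312033 on the minus strand and that of Commd4 at chr9:57155053-57155074 on the minus strand. All 6 are in 3′UTRs. The first 5 genes were called higher in ovulated CKO oocytes and Commd4 was called lower. A match describes letters and shows no binding.

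Stage and deposited table were confounded: all GV libraries stood in one table and all ovulated libraries in another, so a difference in handling between the 2 tables cannot be told apart from the stage. Library totals of the 7 CKO libraries were 26622881 to 27881256 counts. The first principal component held 73.6% of the variance among them and separated the stages, with GV CKO 1 at -42.3 against -94.5 to -81.7 for the other GV libraries and ovulated CKO 2 at 72.1 against 112 and 122. These 2 libraries lay nearest to the other stage, and counts are therefore also given without them. The 100 most abundant genes took 35.2% to 49.8% of the counts in GV CKO libraries and 24.99% to 30.5% in ovulated ones. The sum of 15 oocyte markers was 31049 to 43253 CPM of library totals (CPM scales counts to a common depth) in GV CKO and 29098 to 32534 in ovulated CKO.

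Mff itself was read in every CKO library, at 32.7, 39.0, 47.8 and 43.0 CPM at GV and 34.7, 47.6 and 60.1 CPM after ovulation. Levels here and below are CPM scaled by TMM (trimmed mean of M values), unless another scale is named. The stages overlapped, and the log2 fold change from GV to ovulated was 0.22 (SE 0.30, edgeR adjusted p = 0.557). Scaled over all 14 libraries, Mff measured 39.6 ± 7.34 CPM in GV CKO (SD, n = 4) and 750 ± 226 CPM in GV WT (SD, n = 4). In ovulated oocytes it measured 43.0 ± 11.6 CPM in CKO (SD, n = 3) and 433 ± 220 CPM in WT (SD, n = 3). Which exons were deleted is not stated in the labels, and whether the remaining counts come from the rest of the transcript was not tested.

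From GV to ovulated, 6442 of the 12657 genes that passed the filter on low counts were called in CKO oocytes, which is 50.9%. Higher after ovulation were 2911 genes (23.0%) and lower were 3531 (27.9%), by edgeR's quasi-likelihood test with Benjamini-Hochberg adjusted p under 0.05. The falls were the larger changes: 1857 called genes fell by at least 2 on the log2 scale and 491 rose by as much, and at a size of 4 the counts were 241 and 5. The stages did not overlap in 6807 genes, 53.8% of those tested. Without GV CKO 1 and ovulated CKO 2, 7157 genes were called. The split of calls depends on the scaling: with library totals in place of TMM, the median log2 fold change of all genes moved from -0.08 to 0.35 and 3632 genes were called higher against 2238 lower. Every rise and fall below is therefore relative to the bulk of the transcripts within a library and no measure of RNA per oocyte.

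The 10 largest rises included genes of a kinase, an mTORC1 inhibitor, a microtubule-binding protein and an RNA helicase. Pim1, a serine/threonine kinase, measured 1.11, 0.604, 0.648 and 0.591 CPM in the GV libraries and 17.2, 13.6 and 8.48 CPM in the ovulated ones. Every ovulated library lay far above every GV library (log2 fold change 4.12, SE 0.42, edgeR adjusted p = 1.17e-05). Ddit4, an inhibitor of mTORC1 signalling, measured 0.803, 0.302, 0.299 and 0.455 CPM at GV and 9.30, 14.1 and 4.44 CPM after ovulation, a rise of 4.27 (SE 0.51, edgeR adjusted p = 2.67e-05). Clasp2, which stabilises microtubule plus ends, measured 11.5, 8.41, 7.72 and 7.32 CPM at GV and 93.3, 85.4 and 86.8 CPM after ovulation. Both stages were tight and far apart, with a log2 fold change of 3.34 (SE 0.30, edgeR adjusted p = 8.48e-06). Upf1, the helicase of nonsense-mediated decay, measured 10.5, 7.33, 11.4 and 11.1 CPM at GV and 106, 98.2 and 81.0 CPM after ovulation (log2 fold change 3.24, SE 0.30). Rpgrip1 had the largest fitted rise, 4.39, with ovulated values spread from 6.76 to 109 CPM around GV values of 1.12 to 4.14. The other 5 of the 10 largest rises were Rpia (3.58), an enzyme of the pentose phosphate pathway, Furin (3.21), a proprotein convertase, Socs7 (3.19), Insm1 (3.11), a zinc finger transcription factor, and Zdhhc18 (3.11), a palmitoyltransferase.

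In each of the 10 except Rpgrip1 and Upf1 the highest GV value was that of GV CKO 1. Rpia measured 7.63 CPM there and 0.773 to 2.76 CPM in the other GV libraries, with 34.0 to 40.8 CPM after ovulation. Insm1 measured 9.45 CPM in GV CKO 1, 0.947 to 3.37 CPM in the other GV libraries and 22.9 to 41.1 CPM after ovulation. No GV value of the 10 genes reached the ovulated range, which the rule for naming them required.

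**Figure D1:**
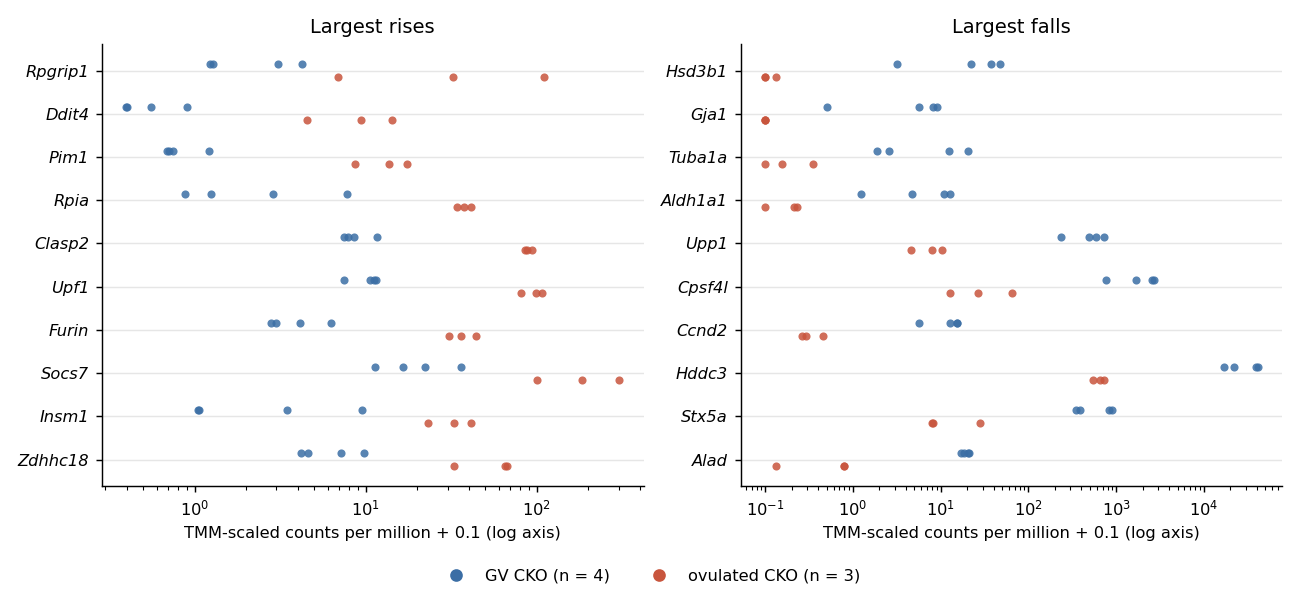
Level of the 10 genes with the largest rises (left) and the 10 with the largest falls (right) from GV to ovulated in CKO oocytes, one point per library, as TMM-scaled CPM plus 0.1 on a log axis. GV (blue) and ovulated (red) points do not overlap for any of the 20 genes, which the rule for naming them required.

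The largest falls joined transcripts of very different abundance. Upp1, uridine phosphorylase, measured 234, 484, 732 and 584 CPM at GV and 4.48, 10.3 and 7.92 CPM after ovulation, a log2 fold change of -6.07 (SE 0.51, edgeR adjusted p = 8.48e-06). Cpsf4l, a paralogue of a cleavage and polyadenylation factor subunit, measured 766, 1693, 2703 and 2560 CPM at GV and 12.6, 64.1 and 26.5 CPM after ovulation, a fall of 5.81 on the log2 scale. Ccnd2, cyclin D2, measured 5.57 to 15.4 CPM at GV and 0.166 to 0.349 CPM after ovulation, and Alad, an enzyme of haem synthesis, 17.1 to 21.1 CPM and 0.0318 to 0.696 CPM. Tuba1a, an alpha-tubulin, fell by 6.42 from 1.76 to 20.1 CPM to at most 0.254 CPM, and Stx5a, a syntaxin of the Golgi, fell by 5.40.

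Of the 10 largest falls, several are in genes known from follicle cells, and 3 of these shared a pattern over the GV libraries. Hsd3b1, an enzyme of steroid synthesis, measured 22.0, 37.7, 47.0 and 3.09 CPM at GV, and a single count was found over the 3 ovulated libraries. Its counts per library size were 2598 times higher at GV, with an exact 95% interval of 466 to 102660 that covers counting error only. Gja1, the gap junction protein connexin 43 of granulosa cells, measured 5.59, 9.02, 8.12 and 0.409 CPM at GV and had no count after ovulation. Against a floor of 3 counts over the ovulated group, it was at least 187-fold lower. Aldh1a1 measured 4.67, 10.7, 12.6 and 1.14 CPM at GV and at most 0.127 CPM after ovulation. In these 3 genes GV CKO 4 was the lowest GV library. This was not so in Ccnd2, also known from granulosa cells and among the same 10 falls, at 15.4, 5.57, 12.8 and 15.2 CPM at GV. GV CKO 4 was also the lowest GV library for the sum of 24 granulosa and cumulus markers. That sum was 52.6 to 117 CPM at GV and 91.2 to 111 CPM after ovulation, in CPM of library totals, and Amh, Areg, Ereg and Tnfaip6 were at 0 in all 7 libraries. Most of the sum came from Cyp19a1, at 32.4 to 55.1 CPM at GV and 52.9 to 71.0 CPM after ovulation. Of these markers, 11 were tested, 6 were called lower and 2 higher (median -2.69), against 27.9% lower and 23.0% higher over all genes tested, and 10 of 24 had no count or no row in the ovulated CKO libraries. The 14 markers of theca, stroma and endothelium summed to 30.8 to 55.7 CPM at GV and 70.7 to 112 CPM after ovulation. Pecam1 gave the largest part of that sum in every library, at 16.2 to 36.2 CPM at GV and 49.3 to 97.9 CPM after ovulation. Of the 14, 6 had no count or no row in the ovulated CKO libraries. The 12 blood and immune markers summed to 3.42 to 4.68 CPM at GV and 3.46 to 5.10 CPM after ovulation. The part of somatic RNA in the falls of Hsd3b1, Gja1, Aldh1a1 and Ccnd2 was not tested.

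By FPKM, which corrects for length, the most abundant GV genes were in large part the ones that fell. Of the 100 genes with the highest mean FPKM in GV CKO, 56 were called lower and 5 higher, with a median log2 fold change of -1.21 against -0.08 over all genes tested. Of the 100 highest in ovulated CKO, 23 were called higher and 16 lower (median 0.02), and 60 genes were in both sets. Over all genes tested, 27.9% were called lower and 23.0% higher. Each set was ranked on values that enter its fold change, which favours falls in the GV set and rises in the ovulated set. The 3 genes at the top in GV fell together: Clec16a measured 33621, 52014, 109139 and 95727 CPM at GV and 2328, 2095 and 2007 CPM after ovulation. Hexdc measured 17149, 26081, 52670 and 48419 CPM and then 1316, 1111 and 1260 CPM, and Hddc3 16743, 22009, 41132 and 39061 CPM and then 723, 646 and 546 CPM. All 3 were lower in GV CKO 1 and 2 than in GV CKO 3 and 4, and their log2 fold changes were -5.08, -4.88 and -5.54. The tables count by gene, and which part of these genes the reads covered is not shown in them. Ubb, which encodes ubiquitin, fell by 2.70 and Elobl, an elongin B paralogue, by 2.00. Obox2, a homeobox gene of oocytes and early embryos, was in the top 6 of both stages, with 5010 to 15446 CPM at GV and 6053 to 9044 CPM after ovulation. It was not called (log2 fold change -0.60, edgeR adjusted p = 0.216), but was called lower without GV CKO 1 (-0.87, adjusted p = 0.0145).

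Of the other genes at the top after ovulation, Pttg1, Omt2a and Omt2b were called higher. Dppa3, a maternal protector of DNA methylation in the zygote, measured 5120, 5190, 4443 and 3607 CPM at GV and 4516, 5029 and 7288 CPM after ovulation. The stages overlapped and Dppa3 was not called, except with length and GC trends removed (1.10, limma adjusted p = 0.00514). Pttg1, securin, the inhibitor of separase, measured 1890, 2051, 1854 and 1672 CPM at GV and 3574, 2933 and 6387 CPM after ovulation, a rise of 1.20 (SE 0.33, edgeR adjusted p = 0.00781). Omt2a, an oocyte-specific transcript, rose from 2053 to 2732 CPM to 3916 to 5583 CPM (log2 fold change 0.95), and Omt2b by the same 0.95. The calls of Pttg1, Omt2a and Omt2b were lost without ovulated CKO 3 (adjusted p = 0.0775, 0.0947 and 0.108), the library with their highest value. Those of Omt2a and Omt2b were also lost without GV CKO 4 (adjusted p = 0.0636 and 0.0642). Mphosph6 was not called (log2 fold change 0.47, edgeR adjusted p = 0.251), but was called higher with library totals (0.85, adjusted p = 0.0281), with log2(FPKM + 1) (0.82, limma adjusted p = 0.0305), without GV CKO 1 and ovulated CKO 2 (0.65, adjusted p = 0.0428) and with length and GC trends removed (1.33, limma adjusted p = 0.00248).

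The cytosolic ribosome had the lowest median of the 30 gene groups described here. Of 79 tested genes of the cytosolic ribosome, 65 fell and 2 rose, and the median of their log2 fold changes was -2.32. Over all genes tested 27.9% fell and 23.0% rose, with a median of -0.08. The median level of these genes was 71.7 to 118 CPM in the GV libraries and 14.3 to 29.6 CPM in the ovulated ones. Rpl24, a protein of the large subunit, measured 76.9, 138, 141 and 95.03 CPM at GV and 2.38, 6.04 and 3.28 CPM after ovulation, a fall of 4.85 (SE 0.44, edgeR adjusted p = 8.48e-06). Rpl6, also of the large subunit, fell by 4.37, with every ovulated library below 9 CPM. In both genes the stages did not overlap. Rps28 ran the other way, from 18.3 to 34.9 CPM to 42.5 to 54.1 CPM (log2 fold change 0.86, adjusted p = 0.0353), a call lost when any of GV CKO 1 or 4 or ovulated CKO 1, 2 or 3 was left out. Ribosomal protein genes have many processed pseudogenes, and how the authors' counting treated reads shared with them is not stated in the labels.

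The mitochondrial ribosome followed, with 53 of 78 tested genes lower and 1 higher (median -1.59), against 27.9% and 23.0% over all genes tested. Mrps22 measured 268, 426, 396 and 334 CPM at GV and 9.43, 24.2 and 13.5 CPM after ovulation, and Mrpl46 fell from 49.3 to 67.6 CPM to 2.79 to 3.56 CPM (log2 fold change -4.15). Mrpl41 fell by 3.25. Mrps14 was the exception, at 67.6 to 136 CPM and then 173 to 295 CPM, with an adjusted p of 0.0177 that rose above 0.05 without any of GV CKO 3, GV CKO 4 or ovulated CKO 3 (0.0537 to 0.0939).

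Nuclear genes of the respiratory chain were lower in part, beside 27.9% lower and 23.0% higher over all genes tested. In complex I, which takes electrons from NADH, 19 of 36 genes fell and 3 rose (median -0.92). Ndufa9 measured 143, 223, 190 and 172 CPM at GV and 3.84, 18.1 and 6.20 CPM after ovulation, with ovulated CKO 2 the highest of its stage. Ndufs7, a subunit with an iron-sulphur cluster, fell by 3.45 and Ndufb7 by 3.84. Ndufa1 rose by 1.43, to 114 to 148 CPM, above every GV value. Of 14 genes of complexes II and III, 8 fell and 1 rose (median -1.22): the succinate dehydrogenase subunits Sdhd and Sdhb fell by 3.37 and 2.70, and the core protein Uqcrc1 by 2.95. Uqcr11 was called higher (1.06, adjusted p = 0.0182) with overlapping stages, and the call was lost without any of GV CKO 4, ovulated CKO 2 or ovulated CKO 3 (adjusted p 0.0540 to 0.0696).

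In cytochrome c oxidase, 5 of 13 genes fell and 2 rose, and the median was 0.35, against the direction of most calls. The shares over all genes tested were 27.9% lower and 23.0% higher. Without GV CKO 1 and ovulated CKO 2 the median was -0.08. Cox4i1, a core nuclear subunit, measured 163, 306, 278 and 215 CPM at GV and 16.5, 36.7 and 16.9 CPM after ovulation (log2 fold change -3.37, SE 0.40, edgeR adjusted p = 2.73e-05). Cox7a2l, which joins respiratory supercomplexes, fell by 2.23 and Cox5a by 1.41, while Ndufa4, a subunit of the oxidase despite its name, rose by 1.54. Of 18 ATP synthase genes, 13 fell and 1 rose (median -1.41). Atp5g1, a copy of the rotor ring subunit, measured 256, 282, 239 and 195 CPM at GV and 13.7, 26.6 and 25.8 CPM after ovulation. Atp5o fell by 3.54 and Atp5d by 4.55, both parts of the stalks of the enzyme. Atp5mpl was called higher (1.10, adjusted p = 0.0113), a call lost without ovulated CKO 2 (adjusted p = 0.0581).

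In other mitochondrial groups most calls were falls too. Falls also outnumbered rises over all genes tested (27.9% and 23.0%). Of 31 protein import genes 18 fell and 1 rose (median -1.45). Timm50, a receptor of the inner membrane translocase, measured 36.1, 35.7, 37.0 and 48.0 CPM at GV and 1.18, 2.84 and 2.29 CPM after ovulation. Timm17a fell by 4.07 and the small chaperone Timm13 by 3.30, while Tomm6 rose by 1.26, a call lost without ovulated CKO 3 (adjusted p = 0.0601). Of 35 genes of mitochondrial DNA maintenance and RNA expression 18 fell and 7 rose (median -1.06). Polrmt, the mitochondrial RNA polymerase, fell by 3.70, the elongation factor gene Tufm by 4.76 and Mterf4 by 3.43, and Fastkd1 rose by 1.76. Of 38 genes of pyruvate use, the citric acid cycle and fat oxidation 17 fell and 3 rose (median -0.81). Idh3g measured 42.0 to 95.3 CPM at GV and 3.18 to 3.65 CPM after ovulation, Idh3b and Mdh2 fell by 3.89 and 4.01, and Pdk1, an inhibitor of pyruvate dehydrogenase, rose by 1.50. Of 35 antioxidant genes 16 fell and 3 rose (median -1.12), with falls of 3.37 in Gpx4, 3.00 in Glrx and 3.29 in Glrx3 and a rise of 1.38 in Txnrd1.

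Genes of mitochondrial shape and movement, the group to which Mff belongs, were split, near the shares over all genes tested (23.0% higher and 27.9% lower). Of 33 tested, 8 rose, 7 fell and 18 were not called, and the median of -0.02 became 0.41 with library totals. Mfn1, a mitofusin of the outer membrane, measured 76.2, 36.7, 34.5 and 40.4 CPM at GV and 149, 121 and 90.2 CPM after ovulation. GV CKO 1 was the highest of the GV libraries and still below all ovulated ones (log2 fold change 1.35, SE 0.34, edgeR adjusted p = 0.00421). Gdap1, also of the outer membrane, rose by 1.44 and Kif5b, a kinesin motor that carries mitochondria, by 1.65. Mtx1, metaxin 1, measured 35.1, 42.1, 34.6 and 32.9 CPM at GV and 0.921, 3.70 and 3.05 CPM after ovulation, a fall of 3.82 (SE 0.46).

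Most proteasome and tubulin genes tested were called lower, against 27.9% lower and 23.0% higher over all genes tested. Of 34 proteasome genes 22 fell and 2 rose (median -1.47). Psmc2, an ATPase of the regulatory particle, measured 207, 380, 352 and 304 CPM at GV and 7.69, 9.22 and 10.4 CPM after ovulation, and the ATPases Psmc4 and Psmc1 fell by 3.79 and 3.41. Psme4, a proteasome activator, rose by 2.26 from 58.5 to 218 CPM to 463 to 656 CPM. Of 19 tubulin genes 12 fell and none was called higher (median -1.36): Tuba4a fell by 5.22 and Tubb4b by 4.49, and in both the GV values of CKO 1 and 2 were under those of CKO 3 and 4. Tubd1 fell by 2.28.

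Chromatin regulators were the group with the highest median. Of 43 genes of DNA methylation and chromatin 24 rose and 4 fell, against 23.0% and 27.9% over all genes tested. The median was 1.03 on the log2 scale. Tet3, the dioxygenase that oxidises 5-methylcytosine in the zygote, measured 471, 204, 180 and 224 CPM at GV and 1391, 795 and 1086 CPM after ovulation (log2 fold change 2.02, SE 0.37, edgeR adjusted p = 0.000603). The histone H3 lysine 4 methyltransferase genes Kmt2d and Kmt2c rose by 1.67 and 1.96. Npm2, a nuclear chaperone of the egg, measured 663, 1635, 1849 and 1773 CPM at GV and 302, 515 and 370 CPM after ovulation, a fall of 1.90.

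The machinery that removes maternal mRNA also leaned to rises. Over all genes tested, 23.0% rose and 27.9% fell. Of 40 genes of deadenylation, decapping and decay 19 rose and 5 fell (median 0.75). Pan3, of the PAN2-PAN3 deadenylase, whose 3′-end site is printed above, measured 157, 138, 203 and 143 CPM at GV and 594, 569 and 702 CPM after ovulation, without overlap. Tut7, which adds uridines to deadenylated mRNA, rose by 2.08, and Cnot10, of the CCR4-NOT complex, fell by 3.44. Of 27 storage genes 9 rose and 7 fell (median 0.48), nearer to the shares over all genes. Lsm14a, a repressor found in RNA granules, measured 331, 150, 115 and 119 CPM at GV and 886, 840 and 846 CPM after ovulation, and its site is also printed above. Ybx1 and Patl1 rose by 1.68 and 1.89, and Patl2, the oocyte paralogue of Patl1, fell by 2.70. Of 37 genes of translational activation 14 rose and 7 fell (median 0.42). Cpeb4, a CPE-binding protein that acts late in maturation, measured 34.8, 17.5, 9.72 and 7.96 CPM at GV and 116, 70.3 and 101 CPM after ovulation. Pum2, of a translational repressor, rose by 1.95 and the deadenylase gene Cnot6l by 1.86, so the group name does not describe every member. Cpsf4l, of the same group, fell by 5.81.

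Cell cycle genes were mixed, beside 23.0% higher and 27.9% lower over all genes tested. Of 20 genes of cohesin and its protectors 11 rose and 4 fell (median 0.92): Stag1 and Rad21, subunits of the ring, rose by 1.90 and 2.21, and Sgo2a, shugoshin 2, which shields centromeric cohesin, by 1.49. Meikin, a meiotic kinetochore factor that acts in the first division, fell by 3.38 from 24.1 to 41.5 CPM to 1.84 to 4.76 CPM. Of 37 genes of the anaphase-promoting complex and metaphase II arrest 14 rose and 10 fell (median 0.33). Espl1, separase, rose by 1.90, the ubiquitin-conjugating enzyme gene Ube2s by 1.96 and Map2k1, of the MAP kinase cascade, by 1.30. Ttk, a spindle checkpoint kinase, fell by 1.81. Of 31 genes of prophase arrest and entry into M phase 9 rose and 7 fell (median 0.08), near the shares over all genes. Prkaca, the catalytic subunit of protein kinase A, measured 7.04, 4.49, 3.99 and 5.96 CPM at GV and 28.5, 21.2 and 30.7 CPM after ovulation. Its regulatory subunit Prkar2a rose by 2.28 and Pde3a, the phosphodiesterase that lowers cAMP at meiotic resumption, by 1.64, while Prkaa1, of AMP-activated kinase, fell by 3.48. Of 47 spindle and kinetochore genes 12 rose and 7 fell (median 0.34), among them Bod1 (1.98), Rcc1 (1.88) and Tacc3 (-3.80), the last from 893 to 2442 CPM to 91.4 to 169 CPM. Of 34 genes of actin and the cortex 10 rose and 6 fell (median 0.32), with rises of 2.06 in Arpc1b, 2.10 in Wasl and 1.79 in Daam1 and a fall of 1.93 in Pfn1, profilin.

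Among genes of oocyte identity most calls were falls, but falls also outnumbered rises over all genes tested (27.9% and 23.0%). Of 17 genes of the subcortical maternal complex and oocyte Nlrp family 9 fell and 1 rose (median -0.87). Nlrp14 measured 3046, 7298, 7988 and 7994 CPM at GV and 1515, 1825 and 1467 CPM after ovulation, Nlrp2 fell by 2.41 and Padi6 by 2.85, and Zbed3 was called higher (0.98, adjusted p = 0.0145), a call lost without ovulated CKO 3 (0.0820). Of 12 genes of the zona pellucida and egg surface 6 fell and none was called higher (median -1.12). Zp3, a glycoprotein of the coat, measured 2805, 3439, 4559 and 4530 CPM at GV and 476, 670 and 502 CPM after ovulation, Zp1 fell by 2.78 and Izumo1r, the sperm receptor Juno, by 2.74. Of 20 oocyte transcription and secreted factors 5 fell and 4 rose, near the shares over all genes. Their median of -0.49 was 0.01 with library totals. Fgf8 fell by 3.82, Nobox by 3.16 and Obox3 by 1.88, and Foxo3 rose by 1.83. Of 16 early-embryo genes 7 fell and 2 rose (median -0.78), with falls of 4.03 in Arg2, 2.80 in Dppa4 and 1.72 in Zscan4d and a rise of 1.96 in Klf4.

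Stress, death and calcium genes were smaller groups, set beside 23.0% higher and 27.9% lower over all genes tested. Of 21 genes of the integrated stress response 8 rose and 7 fell (median 0.49): Eif2ak4, a kinase of the initiation factor eIF2, rose by 2.05 and Ppp1r15b, of its phosphatase, by 1.78, and Ddit3, encoding CHOP, fell by 3.26 from 51.5 to 93.5 CPM to 6.10 to 10.7 CPM. Of 11 BCL2 family genes 4 rose and 1 fell (median 0.53). Bcl2l2, which protects from apoptosis, measured 15.3, 7.85, 5.23 and 4.78 CPM at GV and 52.6, 78.4 and 64.6 CPM after ovulation, and Bcl2l11, encoding the pro-apoptotic BIM, rose by 1.51. Bax was called lower (-1.77, adjusted p = 0.0184), a call lost with library totals (0.134) and without ovulated CKO 3 (0.0769). Pmaip1 was called higher (2.02) at no more than 1.94 CPM, a call lost without GV CKO 1 and 2 (adjusted p = 0.0695). Of 24 calcium genes 9 rose and 5 fell (median 0.55), with rises of 1.93 in Itpr1, the calcium release channel of the endoplasmic reticulum, 1.63 in Atp2a2 and 1.24 in Atp2b1 and a fall of 2.49 in Vdac3. Of 28 genes of autophagy and mitophagy 9 fell and 8 rose, near the shares over all genes. Their median was -0.46, or 0.00 to the second decimal with library totals. Among them were Atg4b (-2.99), Phb2 (-2.05), Atg13 (-3.29) and Ulk1 (1.98).

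**Figure D2:**
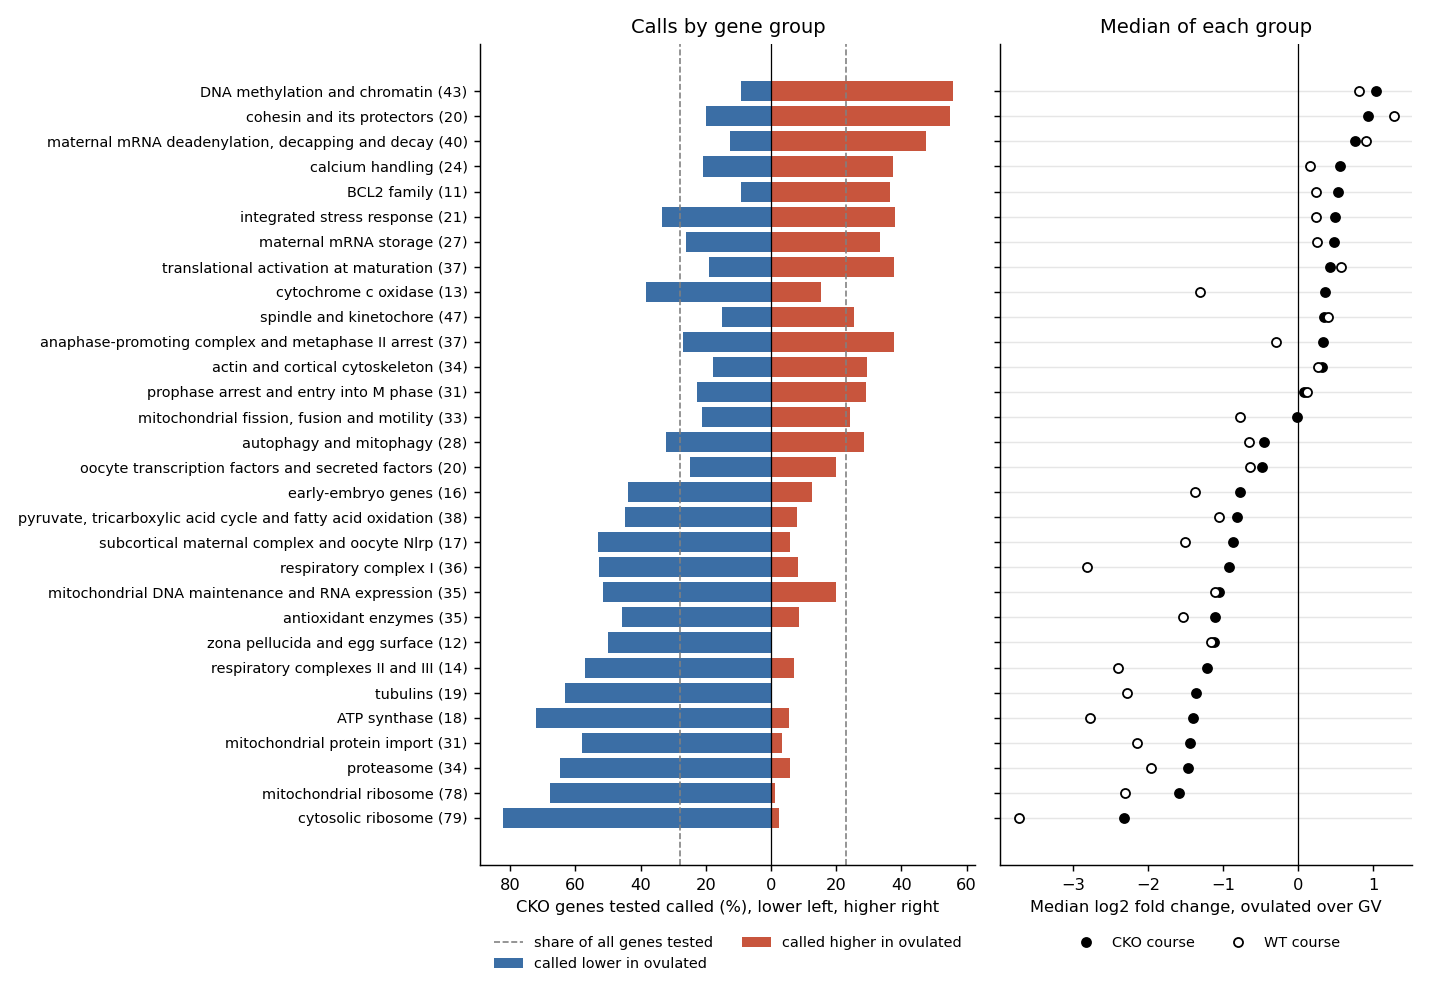
Share of tested genes of each of 30 gene groups called lower (blue) or higher (red) from GV to ovulated in CKO oocytes, with the number tested in brackets and the shares over all genes as dashed lines (27.9% and 23.0%), and the median log2 fold change of each group in CKO (filled) and WT (open). The cytosolic ribosome has the lowest CKO median, -2.32, and chromatin the highest, 1.03.

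Transcript length went with the direction of the calls. The median transcript length was 4222 bases for genes called higher, 3013 for genes not called and 2130 for genes called lower, over the 96.1% of tested genes with a coding transcript in GENCODE M21. With genes split into 5 equal bins by transcript length, the median log2 fold change ran from -0.97 in the shortest (311 to 1686 bases) through -0.57, -0.06 and 0.35 to 0.78 in the longest (at least 4975 bases). Median GC content was 48.3% for genes called higher and 51.0% for genes called lower. Median transcript length was 878 bases for the cytosolic ribosome, 1324 for the mitochondrial ribosome, 824 for ATP synthase and 940 for complex I, against 4373 for chromatin. The group with the shortest transcripts, cytochrome c oxidase (659 bases), had a positive median of 0.35. With length and GC trends removed in each library, limma-trend called 3422 genes higher and 3328 lower, against 3002 and 3683 with the trends kept. The median log2 fold change of all genes was then 0.06. The cytosolic ribosome still had 59 of 79 genes lower (median -1.38) and the mitochondrial ribosome 44 of 78 (-1.06). ATP synthase had 6 of 18 lower (-0.50), proteasome 17 of 34 (-0.64) and tubulins 8 of 19, with 3 higher (-0.34). The medians became -0.09 for pyruvate and fat oxidation, -0.35 for the zona group and 0.39 for cohesin, and that of oocyte transcription and secreted factors turned to 0.30. Complex I had 14 lower and 10 higher (-0.18), cytochrome c oxidase 4 lower and 7 higher (1.20), and chromatin 23 higher of 43 (0.78). In that fit Mff was called higher (0.95, adjusted p = 0.00480), and Npm2 and Atp2b1 were no longer called (adjusted p = 0.110 and 0.311).

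CPE motifs were counted as TTTTAT or TTTTAAT within the 100 bases of 3′UTR before an AATAAA or ATTAAA in the last 40 bases of the transcript, on the mRNA strand alone, and neither CPE letters can overlap the signal. Of genes with such a signal, 28.99% of those called higher held a CPE (689 of 2377), 18.4% of those not called (849 of 4609), 8.74% of those called lower (209 of 2392) and 18.6% of all (1747 of 9378). The median log2 fold change was -0.12 without a motif (7631 genes), 0.60 with 1 (1445 genes), 0.82 with 2 (267 genes) and 1.07 with 3 or more (35 genes). Since longer 3′UTRs also went with rises (median 1543 bases in genes called higher, 552.5 in genes called lower), the motif was also read within 4 equal bins of 3′UTR length. In the shortest bin the median was 0.35 with a CPE and -0.97 without, and in the next it was 0.48 and -0.28. In the longer bins it was 0.81 and 0.26, then 0.82 and 0.49. These are descriptions across genes, which are not independent replicates, and carry no test. Commd4 carries the motif printed above and was called lower, but the call was lost with library totals (-0.69, adjusted p = 0.178) and with length and GC trends removed (adjusted p = 0.995).

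**Figure D3:**
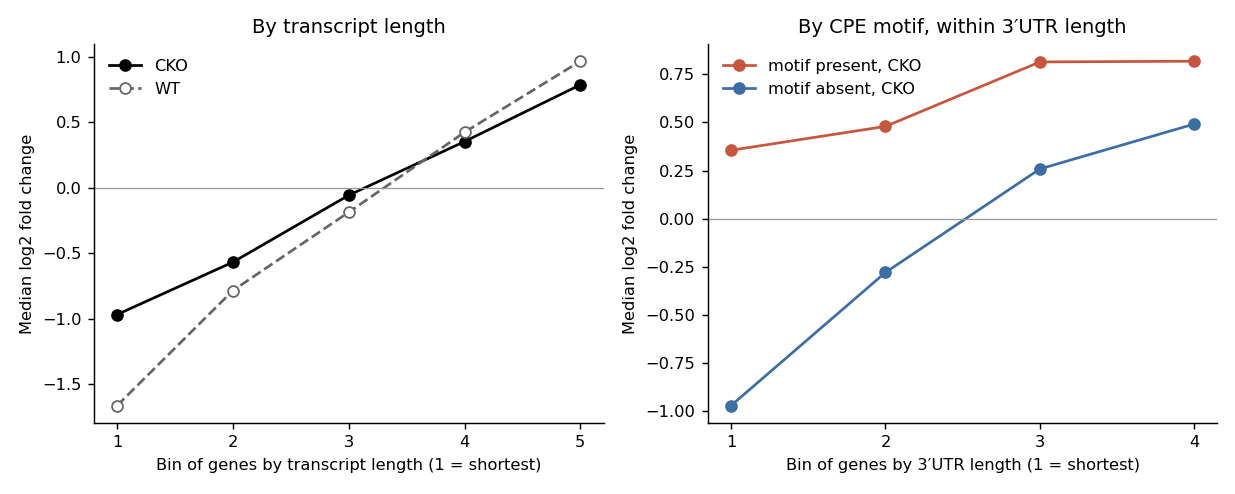
Median log2 fold change from GV to ovulated by transcript length (5 equal bins) in CKO and WT (left), and by 3′UTR length (4 equal bins) for CKO genes with and without a CPE motif (right). The CKO median runs from -0.97 to 0.78 with length, and genes with the motif lie above those without it in each of the 4 bins.

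The same course in WT oocytes, fitted alone on its own 7 libraries, called 8824 of 12424 genes (71.0%), 4130 higher (33.2%) and 4694 lower (37.8%). Over the 12215 genes tested in both genotypes, 2694 were higher in both and 3251 lower in both. A further 175 were called higher and 202 lower in CKO alone, and 1394 and 1397 in WT alone. Across these genes the 2 courses, which share no library but share the confounding of stage with table, had a Spearman correlation of 0.920, given as a description. The CKO course was narrower, with a standard deviation of 1.59 on the log2 scale against 2.12 over the genes tested in each. Genes called lower in CKO had a median of -2.04 in CKO and -2.79 in WT, and genes called higher in CKO had 1.46 and 1.67. Genes called in WT, a choice that favours larger WT values, had -1.60 in CKO and -2.42 in WT when lower and 1.17 and 1.47 when higher.

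The ovulated CKO libraries differed in how far they lay from GV. Over 2826 genes that fell in WT by at least 2, the median position against the GV CKO mean, on log2(CPM + 0.5), was -2.21, -1.44 and -2.03 for ovulated CKO 1, 2 and 3. Over 3254 genes that rose in WT by at least 1 it was 1.46, 1.12 and 1.34. These positions describe the CKO libraries against each other and are not set against WT values, by which the genes were chosen. Within the GV stage, GV CKO 1 lay 0.29 below the mean of the other GV CKO libraries over the first set and 0.53 above it over the second. Ovulated CKO 2 and GV CKO 1 thus sat towards the other stage in both sets.

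The difference of the courses was tested as an interaction over all 14 libraries. In 419 of 13199 genes the change was more positive in CKO (3.17%), and in 11 it was more negative (0.0833%). Of the 416 with a more positive difference that were tested in both courses, all were called lower in WT, 275 were also called lower in CKO and 6 were called higher in CKO. The median log2 fold change of these genes, chosen by this difference, was -1.55 in CKO and -4.19 in WT. The count rests heavily on single libraries: it was 430 in both directions together, 129 without ovulated CKO 2 and 1006 without ovulated CKO 1. It was 205 without GV CKO 1 and ovulated CKO 2, and 224, 231, 231, 239 and 269 without ovulated WT 2, GV WT 3, GV WT 4, GV WT 1 and ovulated WT 1.

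**Figure D4:**
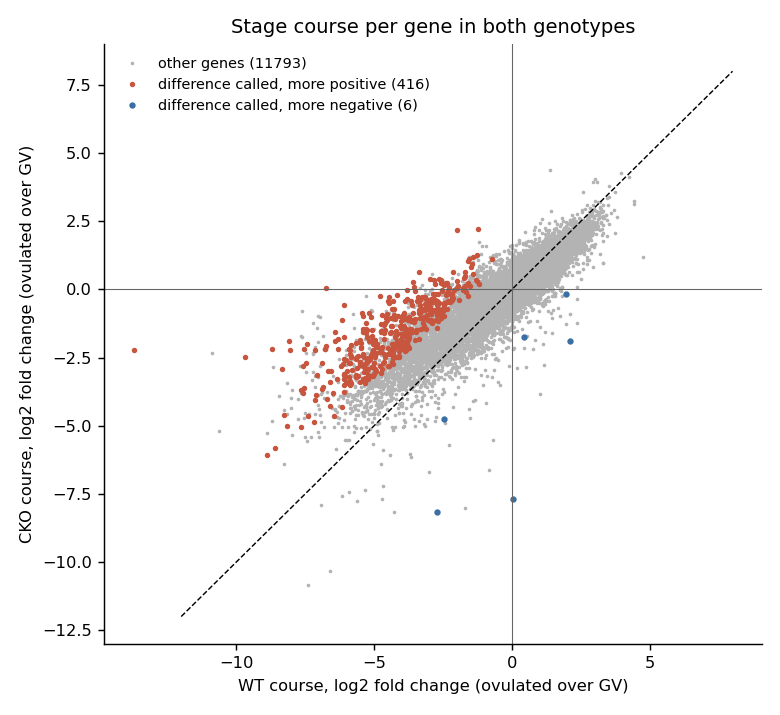
Log2 fold change from GV to ovulated per gene in WT (horizontal) and CKO (vertical) for the 12215 genes tested in both, with the dashed line marking equal change. The 416 genes with a more positive difference (red) lie above the line on the side of WT falls, and 6 genes have a more negative difference (blue).

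The called differences included genes of oxidative metabolism and the ribosome. Of the cytosolic ribosome genes 30 of 79 had a more positive difference, of ATP synthase genes 9 of 18 and of complex I genes 12 of 36. The counts were 4 of 13 for cytochrome c oxidase and 8 of 78 for the mitochondrial ribosome, against 3.17% over all genes tested. Other groups had 3 of 14 (complexes II and III), 2 of 12 (zona), 3 of 34 (proteasome) and 0 of 19 (tubulins). None in these groups was called more negative. All 416 more positive genes tested in both courses were among the 4654 called lower in WT, so 3.17% is a low reference for groups with many WT falls. In WT, 73 of 79 cytosolic and 62 of 78 mitochondrial ribosome genes were called lower. These counts are given for the full fit alone, whose total rests heavily on single libraries. Group medians in CKO and WT were -2.32 and -3.72 for the cytosolic ribosome, -1.41 and -2.78 for ATP synthase and -0.92 and -2.81 for complex I. For deadenylation and decay they were 0.75 and 0.90, and no gene of that group had a called difference. The groups were taken up with earlier results of these libraries known and are not independent evidence.

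Among genes called in the CKO course, the most positive differences were in Acy3, Best2, Snx15, Commd4 and Chchd2, and no gene with a more negative difference met the rule for naming. Chchd2, a small protein of the mitochondrial intermembrane space, measured 331, 682, 767 and 688 CPM in GV CKO and 77.7, 271 and 116 CPM in ovulated CKO, scaled over all 14 libraries. In WT it measured 700, 425, 601 and 659 CPM at GV and 9.97, 6.71 and 4.38 CPM after ovulation. GV levels overlapped between genotypes, and every ovulated CKO library lay above every ovulated WT library (difference 4.41, edgeR adjusted p = 0.000940). Chchd2, like the other genes listed here, was chosen by its called difference. That choice favours such a separation, and the p restates it. Commd4, of a family that regulates endosomal sorting, measured 7.47, 7.22, 8.86 and 6.98 CPM in GV CKO and 3.61, 3.83 and 2.31 CPM in ovulated CKO, against 7 counts in all over the ovulated WT libraries. Its CKO fall of 1.13 (adjusted p = 0.0154) was lost with library totals (-0.69, adjusted p = 0.178), without GV CKO 3 or ovulated CKO 3 (0.0519 and 0.0799) and with length and GC trends removed (0.995). Snx15, a sorting nexin, had ovulated CKO values of 0.802, 7.11 and 1.41 CPM and 9 counts over the ovulated WT libraries, and Best2, a bestrophin channel, 0.372, 3.17 and 1.53 CPM and 4 counts. Their CKO falls were not called with library totals (adjusted p = 0.0662 and 0.0744). Acy3, an aminoacylase, had 131 counts over the ovulated CKO and 2 over the ovulated WT libraries, so its fitted difference of 5.76 has no firm size. Its WT ratio of GV to ovulated counts was 247, with an exact 95% interval of 68.2 to 2045. In Acy3, Best2, Snx15, Commd4 and Chchd2, ovulated CKO 2 held the highest value of its group.

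**Figure D5:**
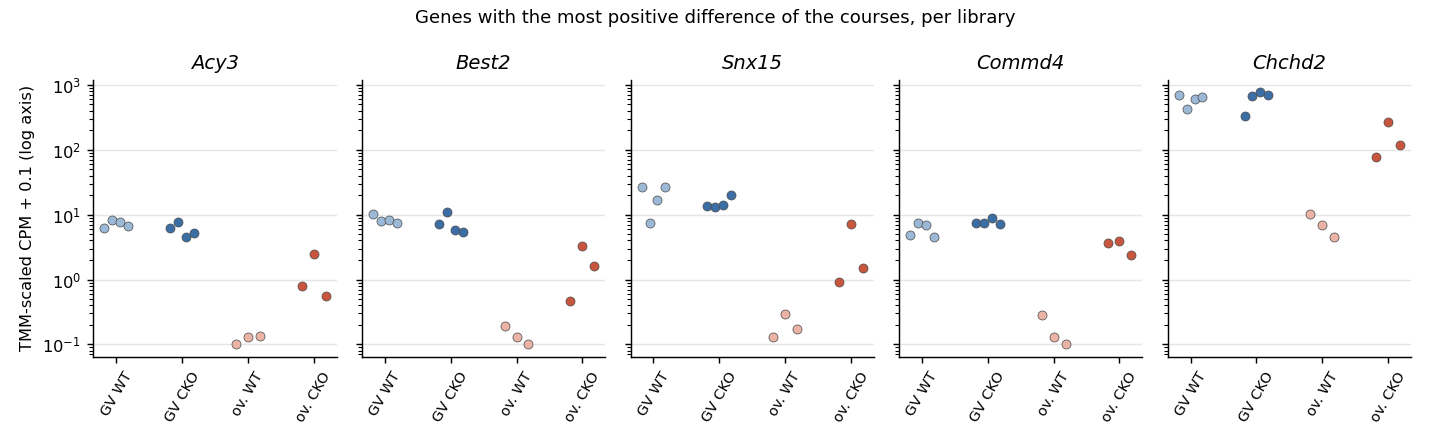
Level of the 5 genes with the most positive difference of the courses, one point per library in each of the 4 groups, as CPM scaled over all 14 libraries plus 0.1 on a log axis. GV levels of both genotypes overlap, and the ovulated CKO points lie above the ovulated WT points in each panel. The genes were chosen by this difference, which favours such a separation.

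After their values were seen, 7 genes were picked out as called in opposite directions in the 2 genotypes. Lsm4, of the Lsm ring that binds U6 RNA and decapping substrates, rose by 2.16 in CKO (edgeR adjusted p = 0.00111) and fell by 1.98 in WT (adjusted p = 0.000348). Cdc25b, the phosphatase that activates CDK1 at meiotic resumption, rose by 1.02 in CKO (adjusted p = 0.0410) and fell by 1.61 in WT. Tomm6, Atp5mpl, Smdt1, a regulator of the mitochondrial calcium uniporter, and Tmem259 likewise rose in CKO, by 1.26, 1.10, 1.11 and 2.20, and fell in WT, by 1.27, 0.72, 1.54 and 1.24. Chrdl1, a BMP antagonist, fell by 1.88 in CKO and rose by 2.11 in WT. The interaction gave adjusted p of 0.00209 to 0.0481, which restates how these genes were chosen. Of the 7, Lsm4 alone kept its CKO call and its interaction call under every alternative run. Without ovulated CKO 2, the CKO rise was lost in Cdc25b (adjusted p = 0.234), Atp5mpl (0.0581), Smdt1 (0.177) and Tmem259 (0.187), and so was the interaction call (0.0644, 0.121, 0.0591 and 0.275). The rise of Tomm6 was lost without ovulated CKO 3 (0.0601), as were those of Cdc25b (0.0952) and Smdt1 (0.157). Those of Cdc25b and Smdt1 were also lost without GV CKO 2 (0.118 and 0.0760) or 3 (0.0833 and 0.0537), and that of Smdt1 without GV CKO 1 (0.0949) or 4 (0.0661). The fall of Chrdl1 was lost without GV CKO 2 or 3 or ovulated CKO 1 or 3 (0.0630 to 0.112) and with library totals (0.139). With library totals the interaction call was also lost in Tomm6, Cdc25b, Atp5mpl, Tmem259 and Chrdl1 (0.0535 to 0.0790).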

How the data were processed

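Per the labels' protocols, oocytes in lysis buffer gave first-strand cDNA by SMART-SeqII, which was preamplified by PCR. For each stage the authors deposited estimated counts and FPKM, by gene and library, per the file headers; 17.6% of GV and 18.4% of ovulated counts above 0 were not whole (tolerance 0.001), and no normalisation of the deposited counts is stated. Per the submitters' processing notes the build was mm10; the programs used to align and count are not stated in them. FPKM, as deposited by the authors, corrects for transcript length and depth.

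Tables were joined on the gene identifier: 16196 genes were in both, 1998 only in the GV and 313 only in the ovulated table, and the latter 2 sets entered no test. Of genes in the GV table alone, 13 had a mean of at least 1 CPM in GV CKO (highest 12.8), and of those in the ovulated table alone 0 had in ovulated CKO. Counts were rounded and fitted with edgeR 4.0.16 in R 4.3.3 (filterByExpr, TMM, robust quasi-likelihood F test) on the 7 CKO libraries; the WT course was fitted the same way on 7 libraries and the interaction on 14. P-values were adjusted by Benjamini-Hochberg over all genes tested and called under 0.05. No adjusted p was computed over a list, and no set test was run. Spearman correlations between replicates were 0.952 to 0.986 (GV CKO) and 0.957 to 0.969 (ovulated CKO), and each of the 9 replicate pairs differed beyond counting noise (chi-square per degree of freedom 35.4 to 338).

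The members, the 30 gene lists, the 4 marker lists and the tests were chosen with earlier results of these data known. Named were Mff; the 10 largest called rises and falls with stages apart and at least 5 CPM in 1 stage, without systematic symbols; from each list the 3 called members with the smallest p in the direction of most calls and 1 in the other (1 gene that this rule names is not reported here); the 6 highest by FPKM per stage; and, of genes called in the course and the interaction with at least 5 CPM, the 5 most positive and 5 most negative differences. Alternatives were size factors by median of ratios (RLE), library totals, no filter, at least 10 CPM, DESeq2 1.42.0, a log2 fold of 1 as threshold, the replicate number as a block, 1 fit over 14 libraries, limma 3.58.1 (limma-trend) on log2(FPKM + 1) and log2(FPKM + 0.1), leaving out libraries and, added after the data were seen, removing length and GC trends. The fits were tested on simulated data. Counting intervals and floors cover counting error only.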

Additional observations from a re-analysis of the deposited data

Results flagged for a closer look

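Of 157 gene values compared over the 4 GV CKO libraries, 14 had a highest or lowest library set apart from the others by a larger share of the group's range than the limit for 4 values, at the 95% level, allows; chance gives about 1 in 20. The gap as a share of the range was 0.892 in Pim1, 0.860 in Mfn1, 0.932 in Psmc1, 0.917 in Prkar2a, 0.909 in Bod1, 0.838 in Lsm14a, 0.878 in Ybx1, 0.859 in Nlrp14, 0.849 in Tet3, 0.907 in Klf4 and 0.846 in Atp2a2. In these 11 genes the library set apart was GV CKO 1, and it lay towards the ovulated values in each. In Timm50 (0.895) and Snx15 (0.853) it was GV CKO 4, the highest, and in Zscan4d (0.877) GV CKO 3, the highest.

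The course differed between CKO and WT by the interaction test in 22 genes named in the report. The log2 difference, CKO minus WT, was 5.76 in Acy3, 5.36 in Best2, 5.26 in Snx15, 4.95 in Commd4, 4.41 in Chchd2, 4.04 in Lsm4 and 3.34 in Tmem259. It was 2.70 in Upp1, 2.67 in Cpsf4l, 2.57 in Arg2, 2.55 in Cdc25b, 2.55 in Smdt1, 2.49 in Ndufs7, 2.45 in Cox4i1, 2.44 in Tomm6, 2.41 in Gpx4, 2.24 in Ndufa9, 2.23 in Rpl24 and 2.19 in Elobl. It was 1.72 in Atp5mpl, 1.60 in Zp3 and -4.10 in Chrdl1.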

How the results depend on the processing

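Stage and table cannot be told apart under any setting, and 3 or 4 libraries a group limit the precision. The CKO course called 6442 genes (2911 higher, 3531 lower). Under all settings the count lay between 5381 and 7183, except 4077 (1934 and 2143) with a mean of at least 10 CPM, where fewer genes are tested, and 2965 (923 and 2042) against a log2 fold of 1, a stricter threshold. The genes called lower were 2238 with library totals, 2267 with log2(FPKM + 1) and 2240 with log2(FPKM + 0.1), when 61.9%, 60.5% and 60.4% of calls were higher, against 45.2%; without a filter FPKM gave 3774 higher and 2677 lower. Leaving out 1 library gave 5381 to 6706 calls. The difference of the courses called 430 genes, 236 with library totals, 883 with DESeq2, 205 without GV CKO 1 and ovulated CKO 2, and 129 to 1006 leaving out 1 library; the cause was not tested. Replicate numbers did not pair the libraries (correlations of the deviations 0.0056, -0.088 and 0.055); with the replicate block, 5505 genes were called in CKO, 8349 in WT and 123 for the difference. List medians with library totals were 0.41 (fission, fusion and motility), -0.54 (mitochondrial DNA and RNA), -0.62 (antioxidant), -1.002 (proteasome), 1.27 (cohesin), 0.74 (spindle), 0.81 (translational activation), 1.09 (decay), -0.68 (zona), -0.0027 (autophagy), 0.98 (BCL2 family), 0.95 (calcium), -0.37 (pyruvate and fat), -0.82 (tubulins), -0.47 (complex I), -0.75 (complexes II and III), 0.84 (cytochrome c oxidase), -0.42 (subcortical complex and Nlrp), -0.36 (early embryo), 0.42 (prophase arrest), 0.76 (anaphase-promoting complex), 0.74 (actin), 0.86 (storage) and 0.92 (stress response). Leaving out 1 library, they ranged from -0.37 to 0.29 for fission, -1.27 to -0.77 for mitochondrial DNA and RNA, 0.66 to 1.12 for cohesin, 0.17 to 0.49 for translational activation, 0.022 to 0.68 for the BCL2 family and -1.64 to -1.18 for tubulins. For single genes, 3469 comparisons kept direction and side of the threshold, 143 lost and 9 gained the call, and none turned.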
